A study of Mus musculus with 405 samples.

Results

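The genes described here encode the DNA topoisomerases Top1, Top1mt, Top2b, Top3a and Top3b and the tyrosyl-DNA phosphodiesterases Tdp1 and Tdp2. They were chosen by gene symbol, as the targets of the topoisomerase 1 (TOP1) inhibitors of a chemical screen and the enzymes that act beside them. All 7 were among the 13304 genes of the screen and among the 23893 genes of a count table for pyraclostrobin. The screen held 393 libraries of polyadenylated RNA from primary cortical cultures, 49 treated with vehicle (dimethyl sulphoxide) and 344 treated with 1 of 297 chemicals. The count table held 4 libraries from cultures treated with pyraclostrobin at 0.1 μM, a fungicide that blocks mitochondrial complex III, and 4 from vehicle. Cultures came from embryos dated to embryonic day 15 by the labels, from C57BL/6J dams crossed to CAST/EiJ males. Every culture, controls included, received an antimitotic nucleoside on the third day and was exposed on day 7 for 24 h. The TOP1 inhibitors were topotecan at 0.3 μM, with 32 libraries, camptothecin at 0.3 μM, with 1 library, and irinotecan at 10 μM, with 1 library.

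Topoisomerases relieve the twisting and tangling of DNA that transcription and replication create. They cut DNA through a tyrosine of the enzyme that stays bound to the cut end, let the strands turn or pass, and seal the cut again. Type I enzymes (Top1 in the nucleus, Top1mt in mitochondria, Top3a and Top3b on single strands) cut 1 strand, and the type II enzyme Top2b, the form of differentiated cells such as neurons, cuts both. Camptothecin and its derivatives topotecan and irinotecan hold TOP1 on the DNA it has cut. Tdp1 removes the tyrosine left by TOP1 from the DNA end, and Tdp2 removes that left by type II enzymes. In neurons, inhibition of TOP1 lowers the expression of long genes, and mutation of TDP1 in humans causes a disease of the cerebellum and nerves.

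In the mm9 annotation, Top1 lies on the plus strand of chromosome 2 from 160471624 to 160548500 and spans 76.9 kb. Top2b lies on the plus strand of chromosome 14 from 17197693 to 17263301 and spans 65.6 kb, and Tdp1, on chromosome 12 from 101122727 to 101193429, spans 70.7 kb. The others are shorter, with 37.3 kb for Top3a, 22.3 kb for Top3b, 21.8 kb for Top1mt and 10.5 kb for Tdp2. The 250 bases before the RefSeq transcription start are printed for Top1 and Top2b, the abundant pair of the family and the members whose topotecan differences had opposite signs at the smallest errors. They are RefSeq sequences on the plus strand of GRCm38.p6, at chr2:160645647-160645896 and chr14:16364956-16365205, and each had 1 exact match in mm9. The matches end at 160471632 and 17197719, a few bases inside the mm9 genes as given above, so the annotations place the starts differently. Capitals mark GC boxes (GGGCGG on either strand) in Top1 and CCAAT boxes (CCAAT on either strand) in Top2b.

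Top1: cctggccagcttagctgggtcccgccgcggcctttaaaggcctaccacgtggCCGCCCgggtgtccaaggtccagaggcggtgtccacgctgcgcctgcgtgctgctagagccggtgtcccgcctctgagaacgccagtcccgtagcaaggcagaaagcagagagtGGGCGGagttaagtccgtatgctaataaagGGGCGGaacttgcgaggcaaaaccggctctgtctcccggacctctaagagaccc

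Top2b: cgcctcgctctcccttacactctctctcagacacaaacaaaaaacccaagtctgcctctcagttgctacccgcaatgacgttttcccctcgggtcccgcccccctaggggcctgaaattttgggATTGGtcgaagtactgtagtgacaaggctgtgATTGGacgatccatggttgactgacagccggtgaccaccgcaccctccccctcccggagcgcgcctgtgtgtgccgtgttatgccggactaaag

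The Top1 window held 3 GC boxes and 0 CCAAT boxes, and the Top2b window 1 GC box and 2 CCAAT boxes. A GC box was present in 32.7% and a CCAAT box in 33.8% of the 32851 windows of the same length. Other motifs searched on both strands were the cyclic AMP response element (TGACGTCA), which contains the CREB half-site (TGACG), the E-box (CACGTG), the octamer (ATGCNAAT) and the TATA box (TATAAA). Of these, Top1 held 1 E-box, found in 6.02% of windows, and 1 octamer, found in 2.86%, and Top2b held 1 half-site, found in 17.8%. The response element was in 1.55% of windows and the TATA box in 12.4%, and neither was in these 2 windows. The motifs were picked with the sequences in view, and a match is a description of letters only.

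The level of each gene was read from the vehicle libraries of the count table, as CPM (counts scaled to a common library total, with TMM factors), divided by the kb of the longest coding transcript. Top2b was the most abundant, at 48.1 ± 3.05 CPM per kb (SD, n = 4), followed by Top1 at 29.8 ± 3.79. Tdp2 stood at 9.85 ± 2.44, Top3b at 4.67 ± 0.508, Top1mt at 3.68 ± 1.65, Tdp1 at 2.96 ± 0.487 and Top3a at 1.46 ± 0.320. Ranges of neighbours in this order did not overlap, except that Top1mt overlapped both Top3b and Tdp1. The order rests on the length used, and another length could change it. All annotated exons together span 10.5 kb for Top1 and 8.34 kb for Top3b, against transcripts of 3.86 and 3.07 kb. The plot of levels in CPM per kb shows the same order in the pyraclostrobin libraries, but for Tdp1 and Top1mt. Precision followed the counts. Top2b was read with 563 to 2095 counts a library and Top1 with 298 to 850, whereas Top3a had 8 to 43 and Top1mt 10 to 48. No stretch of 50 bases of a member was found in a protein-coding transcript of another gene.

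**Figure D1:**
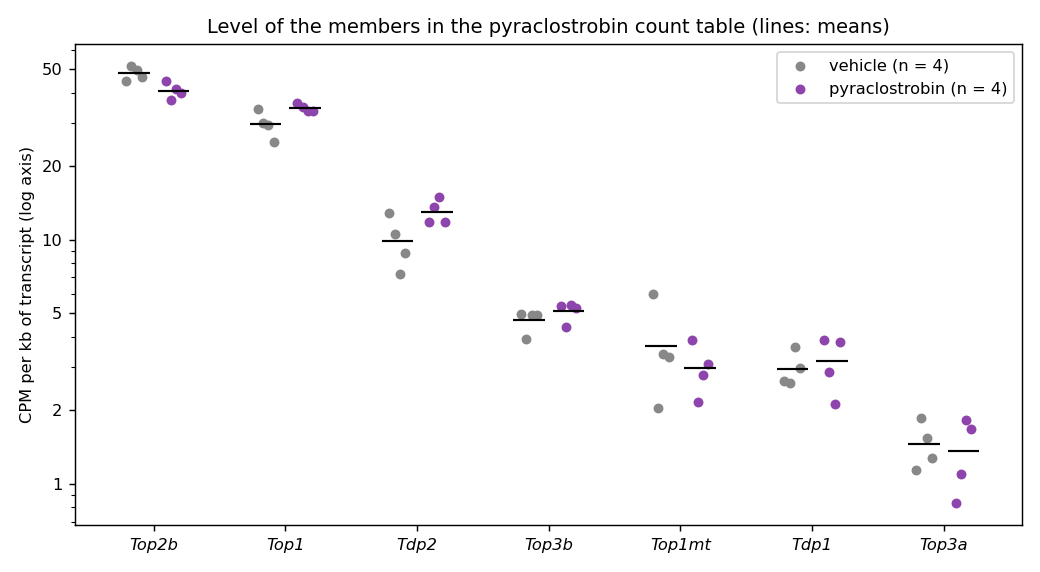
Level of each gene in CPM per kb of transcript (log axis), by gene, for the 4 vehicle (grey) and 4 pyraclostrobin (purple) libraries, with lines at the means. Top2b and Top1 lie above the other 5 genes, and Top3a lies lowest.

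Markers of the labelled cell type were abundant, with the 5 neuron markers summing to 5872 to 5910 CPM of the library total in vehicle libraries, against 239 to 720 for 5 astrocyte, 8.04 to 14.04 for 5 microglia, 80.6 to 183 for 5 oligodendrocyte lineage and 17.1 to 35.6 for 5 dividing-cell markers. Only Aif1 and Pdgfra were at 0 in any library, in 2 of 8 each. Library totals lay between 2409623 and 7833440 counts, and the 2 deepest were vehicle libraries. Values of the screen are deviations of a gene from its own median on the log2 scale, so they give no level, and the depth of those libraries is unknown. Nothing in the labels says which libraries came from separate cultures, so p-values measure the spread between libraries.

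Top1, the target of topotecan, was slightly higher in topotecan-treated cultures. The deviation of Top1 ranged from -0.022 through a median of 0.15 to 0.38 over the 32 topotecan libraries, and from -0.23 through 0.0043 to 0.33 over the 49 vehicle libraries. The ranges overlapped, but 31 of 32 topotecan libraries lay above the vehicle median and 2 lay above the highest vehicle library. The difference in means was 0.14 (SE 0.029) on the log2 scale, or 1.10-fold, with an adjusted p of 2.62e-05 by limma. Values of all members are drawn in the plot of single libraries.

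**Figure D2:**
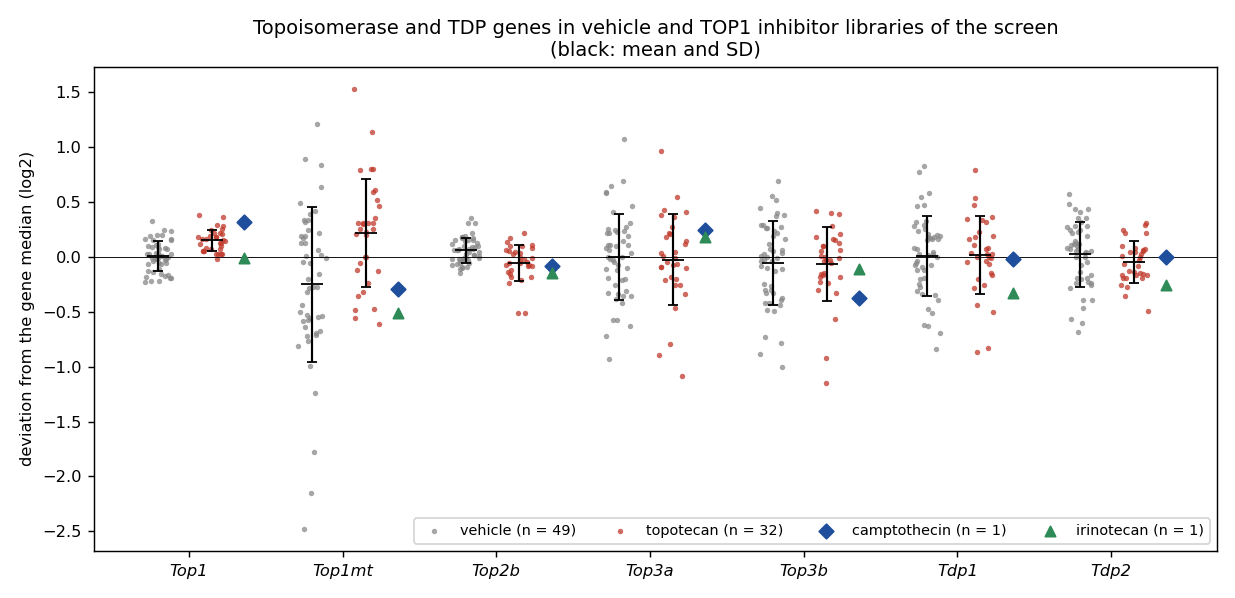
Deviation from the gene median (log2) for each gene in single libraries of the screen: vehicle (grey, n = 49), topotecan (red, n = 32), camptothecin (blue diamond, n = 1) and irinotecan (green triangle, n = 1), with the mean and SD in black. Topotecan libraries of Top1 sit between -0.022 and 0.38, and camptothecin stands at 0.32.

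Top1mt, the mitochondrial enzyme, was also higher with topotecan, by 0.47 (SE 0.14), or 1.38-fold, with an adjusted p of 0.00468. Its libraries spread widely, from -0.61 to 1.53 with topotecan and from -2.48 to 1.21 with vehicle, and 25 of 32 topotecan libraries lay above the vehicle median of -0.20. Like Top3a, it was read with few counts in the count table, and its SD over vehicle libraries, 0.71, was above that of 93.9% of genes. Top2b fell by 0.11 (SE 0.031), to 0.925-fold, with an adjusted p of 0.00211. Its topotecan libraries ran from -0.51 through -0.042 to 0.21 and its vehicle libraries from -0.15 through 0.067 to 0.35. A total of 25 of 32 topotecan libraries lay below the vehicle median, and 7 lay below the lowest vehicle library. Counted from the highest of 297 chemicals, the topotecan median ranked 101 for Top1mt and 202 for Top2b. The Top1mt mean was 0.22 with topotecan, -0.25 in vehicle and -0.040 over the 294 other chemicals. The Top2b means, in the same order, were -0.052, 0.060 and 0.019. Vehicle itself thus lay below the other chemicals for Top1mt and above them for Top2b.

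Top3a, Top3b, Tdp1 and Tdp2 did not pass the test. Top3a, a partner of the Bloom helicase, differed by -0.027 (95% interval -0.21 to 0.15) and Top3b, which also acts on RNA, by -0.0060 (-0.17 to 0.16). Tdp1, the enzyme that clears trapped TOP1, differed by 0.0013 (-0.16 to 0.16), and the sign turned to -0.037 when libraries were centred on genes of at most 100 kb. Tdp2 differed by -0.067 (-0.18 to 0.049). In all, 3 of the 7 genes were called, against 45.8% of all genes tested. Of the 3, 2 were higher and 1 lower, where 24.9% and 20.9% of all genes were. The members were thus called no more often than genes of the whole table. Of the 6090 genes called, 3308 were higher, and with centring on genes of at most 100 kb 2353 of 5859 were. Under that centring the differences were 0.10 for Top1, 0.43 for Top1mt and -0.15 for Top2b. Single-gene permutation tests (two-sided, 100000 resamples, unadjusted) gave p = 2e-05 for Top1, 0.00116 for Top1mt and 0.00038 for Top2b.

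Markers of several cell types moved in the same comparison. With topotecan the 5 neuron markers were all called lower, by -0.16 for Tubb3 to -1.38 for Syt1, and so were 4 of 5 astrocyte markers (Gfap -0.72), 3 of 4 dividing-cell markers (Cdk1 -0.64) and 1 of 2 microglial markers (Cx3cr1 -0.60). The other microglial marker, Csf1r, went the other way at 0.26 and was not called (adjusted p 0.199 by limma). Only 2 of the 5 fixed microglial markers were in the screen. In the oligodendrocyte lineage, Olig1 was called lower by -0.39 and Mbp higher by 0.20. Fewer cells of a type and less RNA per cell cannot be told apart in such bulk samples, and the part of these shifts in the members' values was not tested. Long genes fell with topotecan as a class, with a median of -0.52 over 200 kb. The part of gene length in the marker values was not tested either. Top2a, the type II enzyme of dividing cells, fell by 0.48 (SE 0.12) with topotecan, an adjusted p of 0.00044.

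Camptothecin, at the same dose and time as topotecan, gave a Top1 value of 0.32. Only 1 of 49 vehicle libraries and 2 of 32 topotecan libraries were higher, and over all 297 chemicals the value ranked 2, behind perfluorooctane sulfonic acid at 0.40. Topotecan, as the median of its libraries, ranked 34. The camptothecin difference from vehicle was 0.31 (SE 0.13, 1.24-fold), with a p of 0.0172 and an adjusted p of 0.150 in limma, where the lone library is assumed to vary like the others. None of the 7 genes was called with camptothecin, against 6.89% of all genes. Top1 was the 1 member with an unadjusted p under 0.05, which 17.1% of genes had. All 7 camptothecin values lay inside the vehicle range, and those of the other members ran from -0.38 for Top3b to 0.25 for Top3a. How many of all genes lay inside it with camptothecin was not counted. With the 294 other chemicals, 4.73% of the values of all genes lay outside it.

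Irinotecan, at its higher dose of 10 μM, gave a Top1 value of -0.011, below 27 of 49 vehicle libraries and 31 of 32 topotecan libraries. Its difference from vehicle was -0.020 (95% interval -0.27 to 0.23). The value for Top2b was -0.14, below 48 of 49 vehicle libraries, with a difference of -0.20 (interval -0.48 to 0.073) and an adjusted p of 1.00 in limma. Again 0 of 7 genes were called and 0 had an unadjusted p under 0.05, against 0.015% and 3.92% of all genes, 2 and 522 genes. Because its dose differed from that of the other inhibitors, irinotecan was set beside them and not compared.

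The 1 pair at a matched dose and time, camptothecin and topotecan, was compared directly. Top1 was 0.17 higher with camptothecin (95% interval -0.086 to 0.42) and Top2b -0.031 (-0.31 to 0.25). The remaining differences ran from -0.51 for Top1mt to 0.27 for Top3a. None of the 7 genes was called, nor was any of the 13304 genes of the table (0%), while 433 (3.25%) had an unadjusted p under 0.05 by limma. With 1 camptothecin library, the interval for Top1 includes 0 and also differences larger than the topotecan difference of Top1. The topotecan and camptothecin contrasts share the vehicle libraries.

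The topotecan differences were also set beside those of genes of like length. Genes over 200 kb had a median difference of -0.52 with topotecan and genes of 100 to 200 kb one of -0.14, against 0.055 for 10 to 50 kb and 0.083 for at most 10 kb. Among the 1798 genes of 50 to 100 kb, the median was -0.020 and the middle 50% ran from -0.12 to 0.081. Top1, in this class, lay above 83.6% of its genes, Tdp1 above 57.01% and Top2b above 26.5%. Among the 5574 genes of 10 to 50 kb, Top1mt lay above 97.1%, and Top3b, Top3a and Tdp2 above 31.9%, 26.2% and 18.2%. Top2b, Tdp1, Top3a and Top3b lay within the middle 50% of genes of their length, Top1 and Top1mt above it and Tdp2 below it.

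**Figure D3:**
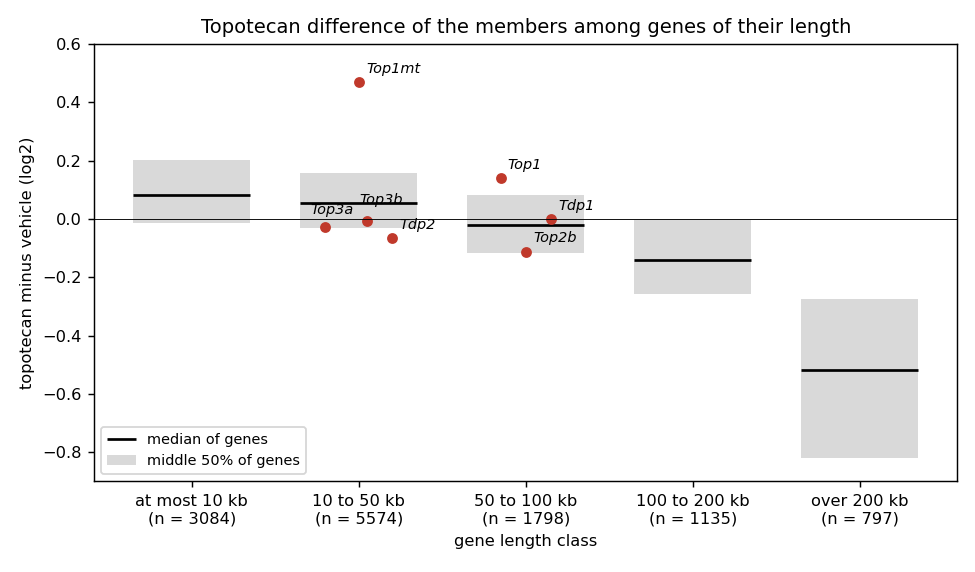
Difference between topotecan and vehicle (log2) by gene length class, with grey bars for the middle 50% of genes, black lines for their medians and red points for the 7 genes in the class of each. Top1 and Top1mt lie above the grey bar of their class, and Tdp2 lies below it.

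The fall of long genes also differed among the 32 topotecan libraries, whose median over genes above 100 kb ran from -0.40 to -0.10, against -0.076 to 0.18 in vehicle, -0.35 with camptothecin and -0.16 with irinotecan. By rank, Top1 tended to be higher in topotecan libraries in which long genes were lower. Here, and for the other members below, values were not centred on genes of at most 100 kb, and the part of normalization was not tested. Over 32 libraries Pearson's r was -0.33 (permutation p = 0.0692) and Spearman's rho -0.52 (permutation p = 0.00269). Without the 2 libraries farthest from the median, at -0.40 and -0.39, r was -0.58 over 30. In limma the slope of Top1 on this median was -0.50 with an adjusted p of 0.274 over 32 libraries, and -1.18 with an adjusted p of 0.0354 over 30. The slopes of 14.5% of all genes were called over 32 libraries and those of 6.07% over 30. The call for Top1 therefore depends on leaving out these 2 libraries, in which Top1 stood at 0.17 and 0.023.

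**Figure D4:**
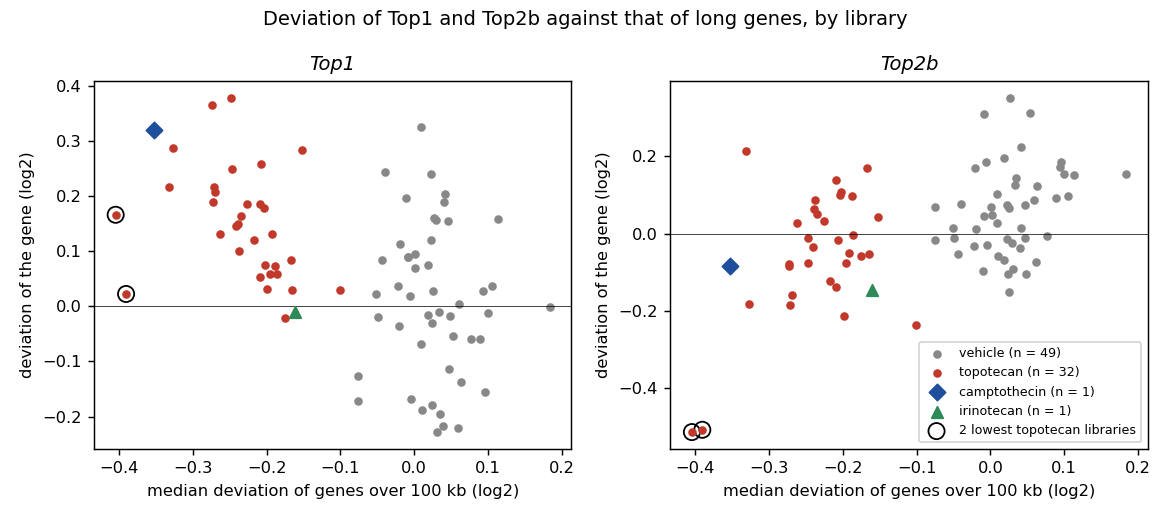
Deviation of Top1 (left) and Top2b (right) against the median deviation of genes over 100 kb (both log2), 1 point a library, for vehicle (grey), topotecan (red), camptothecin (blue diamond) and irinotecan (green triangle), with circles around the 2 topotecan libraries lowest in long genes. The circled libraries hold the lowest Top2b values, -0.51 each.

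Top2b had the opposite sign. Its r was 0.47 (permutation p = 0.00724) and its rho 0.28 (permutation p = 0.113) over 32 libraries, and its slope of 1.21 had an adjusted p of 0.0456 in limma. Without the same 2 libraries, whose Top2b values were both -0.51, r was -0.029 and the slope -0.068, with an adjusted p of 0.965. The relation of Top2b rested on them. The topotecan difference of Top2b itself was -0.081 without them, with an adjusted p of 0.0105, and Top1 (0.14) and Top1mt (0.46) were still called. Among the other 5 members rho lay between -0.27 for Tdp2 and 0.078 for Tdp1, with permutation p-values from 0.134 to 0.8285. These 7 relations were examined after the data had been seen.

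Genes that work with these enzymes were followed through 5 lists, of binding partners, single-strand break repair, nucleases, end joining and the removal of trapped protein, with 45 of 48 genes in the screen. With topotecan 9 of the 45 were called higher and 6 lower, where 24.9% and 20.9% of all genes were. The share called was below the 45.8% of the whole table, a difference that was not tested for these 45 genes. Their median difference was 0.014 against 0.028 over all genes. By list, 2 of 6 partners, 2 of 9 single-strand break repair genes, 2 of 10 nucleases, 2 of 9 end-joining genes and 1 of 11 removal genes were higher, and 2 each of single-strand break repair, end joining and removal genes were lower. Xrcc5, the Ku80 subunit that holds broken ends for joining, rose by 0.65 (SE 0.13, 1.57-fold, adjusted p 2.78e-05 by limma). Ercc4 and Ercc1 encode the 2 subunits of the XPF-ERCC1 nuclease, which can cut DNA beside trapped TOP1 when TDP1 does not act. Ercc4 rose by 0.38 (SE 0.051, 1.30-fold, adjusted p 1.08e-09) and Ercc1 by 0.29 (SE 0.086, 1.22-fold, adjusted p 0.00379). The largest falls in these lists were those of Xrcc4, a scaffold of end joining, by 0.44 (SE 0.10, adjusted p 0.000209), and Cul3, a ubiquitin ligase scaffold, by 0.22 (SE 0.036, adjusted p 4.55e-07). With camptothecin, 1 of 45 genes was called, against 6.89% of all genes, and with irinotecan none was, against 0.015%. The gene called with camptothecin was Ercc4, at 0.76 (SE 0.23, 1.69-fold, adjusted p 0.0229).

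Inhibitors of mitochondrial complexes I and III gave another set of perturbed cultures, with 4 complex I and 7 complex III inhibitors set against 283 other chemicals, each as the median of its libraries. Their doses differed, at 0.01 μM for rotenone and tebufenpyrad and 0.1 μM for fenpyroximate, pyridaben, azoxystrobin and pyraclostrobin. Fluoxastrobin was at 1 μM, and cyazofamid, famoxadone, fenamidone and trifloxystrobin were at 10 μM. The paper reports that azoxystrobin and fluoxastrobin generated no superoxide at the doses sequenced. Top2b was lower with the 11 inhibitors, at -0.10 ± 0.13 (SD, n = 11 chemicals), against 0.023 ± 0.13 (n = 283). The difference was -0.12 (SE 0.040, 0.918-fold), with an adjusted p of 0.0132 in limma over all genes. Values ran from -0.35 with trifloxystrobin and -0.26 with rotenone to 0.061 with pyridaben and 0.10 with cyazofamid, and 9 of 11 lay below the median of the others. Tdp2 was at 0.11 ± 0.15 with the inhibitors and -0.043 ± 0.26 with the others, with 10 of 11 above the others' median. Its difference of 0.15 (SE 0.078) was not called, at an adjusted p of 0.145 by limma. How many of all genes had 9 or 10 of 11 inhibitors on 1 side was not counted. The other 5 differences ran from 0.0086 for Top1mt to 0.15 for Top3b, and Top1 was at 0.0051 ± 0.078. Here 1 of 7 genes was called, against 24.8% of all genes, and it was lower, as were 16% of all genes. Without trifloxystrobin the Top2b difference was -0.098 with an adjusted p of 0.0880, so that chemical decided the call. All 5 neuron markers were called lower in this comparison, from Map2 at -0.21 to Syt1 at -0.42, and 4 of 5 astrocyte markers higher, with Gfap at 0.54, and their part in the Top2b value was not tested. Of the 45 repair and partner genes, 2 were called, against 24.8% of all genes. They were Slx4, a nuclease scaffold, at -0.19 (SE 0.046, adjusted p 0.000306) and Trp53bp1, which favours end joining, at -0.17 (SE 0.038, adjusted p 0.000166).

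**Figure D5:**
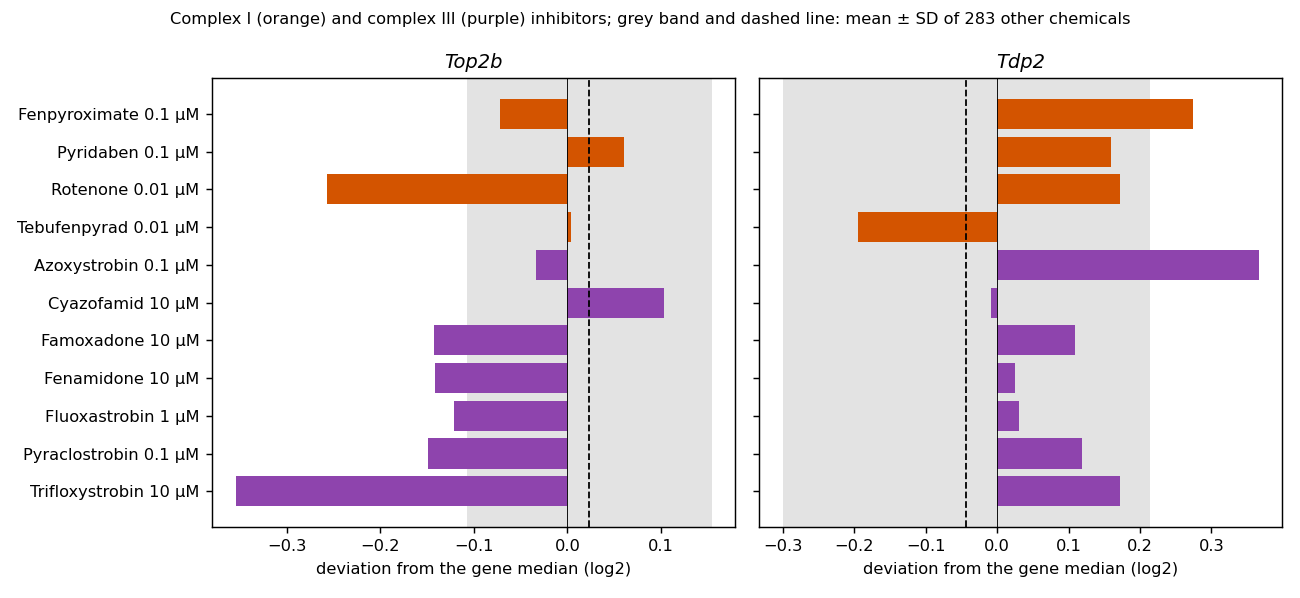
Deviation from the gene median (log2) of Top2b (left) and Tdp2 (right) for 4 complex I (orange) and 7 complex III (purple) inhibitors with their doses in μM, beside the mean (dashed) and SD (grey band) of 283 other chemicals. Top2b bars reach below the grey band for trifloxystrobin, rotenone, pyraclostrobin and others, and lie above 0 for pyridaben, tebufenpyrad and cyazofamid.

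In the count table none of the 7 genes was called for pyraclostrobin at an adjusted p under 0.01 by edgeR, against 21.3% of the 12324 genes tested, all 7 being among them. Top2b had 252, 210, 233.1 and 226 CPM in the pyraclostrobin libraries and 254, 291, 281 and 262 CPM in vehicle. Every pyraclostrobin library lay below every vehicle library, as did 17% of genes tested, and the closest pair differed by little. These Top2b values include TMM factors, of 1.042 to 1.064 with pyraclostrobin and 0.9278 to 0.9727 with vehicle. By library totals alone the Top2b ranges overlapped. The 1st pyraclostrobin library had 645 of 2409623 counts and the 1st vehicle library 714 of 2893598. The log2 fold change was -0.24 (SE 0.11, 0.848-fold), with an unadjusted p of 0.0470 and an adjusted p of 0.107 by edgeR. An unadjusted p under 0.05 was reached by 1 of the 7 genes and by 44.8% of all genes. Top1 had 140, 135, 129 and 130 CPM with pyraclostrobin and 133, 116, 114 and 96.8 CPM with vehicle, where the highest vehicle library lay inside the treated range. Its log2 fold change was 0.22 (SE 0.12) with an adjusted p of 0.179. Tdp2 had 23.01, 26.5, 29.1 and 23.2 CPM against 25.2, 20.6, 14.1 and 17.2 CPM, a log2 fold change of 0.43 (SE 0.20, 1.35-fold) with an adjusted p of 0.122. The remaining 4 ran from -0.28 (SE 0.33) for Top1mt to 0.12 (SE 0.17) for Top3b. The Top1mt value was -0.024 without the 1st vehicle library, -0.45 without the 2nd and -0.48 without the 1st pyraclostrobin library. The 1st pyraclostrobin library is also the pyraclostrobin library of the screen, so both tables share it. The labels list 52 vehicle libraries, while the screen holds 49 and the pyraclostrobin counts 4, so at least 1 vehicle library is in both as well.

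Top2a, no member but the other type II enzyme, was the topoisomerase with a called rise. It had 55.8, 21.7, 21.9 and 20.4 CPM with pyraclostrobin and 12.4, 6.98, 4.70 and 2.99 CPM with vehicle, a log2 fold change of 2.26 (SE 0.46, 4.79-fold, adjusted p 0.00304 by edgeR). It was called neither without the 2nd vehicle library (2.30, adjusted p 0.0100, just past the threshold) nor without the 3rd (2.10, adjusted p 0.0142). Dividing-cell markers moved with it, 3 of 4 tested being called higher, with Cdk1 at 2.66. Their summed level was 75.8 to 139 CPM with pyraclostrobin against 17.1 to 35.6 CPM with vehicle. The marker sums here are CPM of the library total, without the TMM factors that the Top2a values include. Microglial markers summed to 35.7 to 46.99 CPM against 8.04 to 14.04, astrocyte markers to 774 to 3017 against 239 to 720, and neuron markers to 2681 to 3354 against 5872 to 5910. Of the markers tested, 3 of 3 microglial and 1 of 5 astrocyte markers were called higher, and 5 of 5 neuron markers lower. The part of such shifts in the members' values was not tested. Of 45 repair and partner genes tested, 2 were called, against 21.3% of all genes. Aptx, which removes stalled ligation products from DNA ends, fell by 0.63 (SE 0.12, adjusted p 0.00253), a call lost without the 3rd vehicle library (adjusted p 0.0128). Topors, a ligase that binds topoisomerase 1, rose by 0.55 (SE 0.13, 1.46-fold, adjusted p 0.00589). The Topors call was lost with a replicate block (0.55, adjusted p 0.0117), with no filter on low counts (0.45, adjusted p 0.0326) and without any 1 of 7 of the 8 libraries, at adjusted p-values of 0.0132 to 0.0250.

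Across the 294 chemicals other than TOP1 inhibitors, Top2b and Top1 were among the steadier genes. The SD of Top2b over chemicals was 0.13, above that of 11.03% of genes, and that of Top1 was 0.15, above 17.6%. Top1mt had an SD of 0.69 and Top3a one of 0.45. These spreads were near those of vehicle libraries, with ratios between 0.863 for Tdp2 and 1.16 for Top3a and Top2b, and a median ratio of 1.04 over all genes. Over the 14 chemicals with repeat libraries, the SD within a chemical was 0.15 for Top1 and 0.13 for Top2b, close to the SD between chemicals. A value outside the range of the 49 vehicle libraries was found for 8.84% of chemicals for Top1 (1 above and 25 below) and for 10.2% for Top2b (3 above and 27 below), against 4.73% over all genes and chemicals. The other 5 members had 2.38% to 4.42%.

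Single chemicals at the ends of each distribution are given as 1-library values with no test. Top1 was highest with perfluorooctane sulfonic acid (0.40), camptothecin (0.32) and diquat dibromide (0.30), and lowest with parathion-methyl (-0.56), milbemectin (-0.46) and cyproconazole (-0.42). Top2b was highest with pymetrozine (0.38), vinclozolin (0.37) and nitrapyrin (0.35) and lowest with fosthiazate (-0.42), trifloxystrobin (-0.35) and cyromazine (-0.34). Top1mt ranged from -2.44 with maneb, -2.04 with tebufenozide and -2.01 with methyl hydrogen phthalate to 1.37 with butafenacil, 1.499 with cacodylic acid and 1.76 with tralkoxydim. All 3 lowest lay inside the vehicle range of this gene. For Top3a the lowest values came from thiazopyr (-1.47), hexythiazox (-1.45) and diclofop-methyl (-1.40), and the highest from thiodicarb (1.24), propyzamide (1.15) and flumetralin (0.97). Top3b was lowest with diniconazole (-1.25), amitraz (-1.17) and tribufos (-1.13) and highest with 2-phenylphenol (0.85), anilazine (0.74) and methyl hydrogen phthalate (0.74). Among the repair enzymes, Tdp1 ran from cloprop (-1.19), flumetralin (-0.92) and sethoxydim (-0.89) to chlorpropham (0.90), bensulfuron-methyl (0.92) and thiodicarb (0.95). Tdp2 ran from resmethrin (-0.79), methamidophos (-0.79) and bifenthrin (-0.78) to icaridin (0.49), thiobencarb (0.63) and fluthiacet-methyl (0.78). Thiodicarb was thus highest for both Top3a and Tdp1, and trifloxystrobin was the 1 inhibitor of complexes I and III among all these extremes.

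The genes whose values ran most like each member over the 294 chemicals were found by Pearson's r, as a description over chemicals that share libraries' depth and normalization. Top2b had the closest, with Dpysl3 at 0.56, Gm11149 at 0.53 and Chl1 at 0.52. Dpysl3 and Chl1 are genes of growing neurites and of cell adhesion, and the mean of the 5 neuron markers had an r of 0.26 with Top2b. For Top1 the closest were Exoc5 at 0.30, Zbtb6 at 0.26 and Dld at 0.26. The closest genes of the remaining members, Brf1, Cryzl1 and Pcgf2 for Top1mt, Tmem101, Ccdc115 and Pnpla2 for Top3a, Ccar1, Myh14 and Ccz1 for Top3b, Sox4 and Traf4 for Tdp1, and Gm16062, Ssr3 and Mcfd2 for Tdp2, all had r between 0.23 and 0.26. Between members r ran from -0.13 for Tdp1 with Tdp2 to 0.13 for Top1 with Top2b.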

How the data were processed

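Polyadenylated RNA of mouse cortical cultures was measured. Per the labels and the study's methods, the authors aligned reads to mm9 with TopHat and took them over RefSeq gene models joined by gene symbol, with strand use not given in the sources used here. The pyraclostrobin table holds the deposited raw counts. For the screen the authors deposited log10 RPKM values, which were quantile-normalized, median-centred by gene and freed of culture and sequencing batch effects, so batches and levels can no longer be read from them. These log10 values were converted to log2, and the libraries of a chemical were combined by their median where stated.

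Each library was assigned to a group by its label. Groups of the screen were compared with limma 3.58.1 (variance trend, threshold 0.05), and counts with the edgeR 4.0.16 quasi-likelihood test in R 4.3.3 (TMM, at least 10 counts in at least 4 libraries, threshold 0.01), with Benjamini-Hochberg adjustment over all genes tested. The topotecan fit used 2 groups, and the fits for camptothecin and irinotecan used 4. DESeq2 1.42.0, other scalings, filters and thresholds, a replicate block and the removal of single libraries or chemicals were alternatives. At the smallest library total 1 CPM was 2.41 counts. Descriptions used Python 3.11.15 with scipy 1.17.1. Scripts were tested on simulated data.

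The genes, lists, chemical sets and tests were chosen with earlier results of these data known. Named genes were all 7 members, the 3 highest and 3 lowest chemicals and the 3 most alike genes for each, up to 3 called rises and falls of the repair and partner lists in each comparison, and Top2a. Of the most alike genes, 1 is not reported here. Cell type markers came from fixed lists. Gene models are GENCODE vM1 on mm9, and 93.1% of screen genes had a length. Promoters were listed for 4 of the 7 genes. The table of sulforaphane with fenamidone has 6 value columns under a single name, which could not be mapped to samples, and was not used.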

Additional observations from a re-analysis of the deposited data

Results flagged for a closer look

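Among 16 groups of 4 libraries (7 members and Top2a, pyraclostrobin and vehicle), 3 held a library far from the others of its group, where chance gives about 1 in 20 groups. Top3b had 13.5 CPM in the 2nd pyraclostrobin library, below the other 3 at 16.1 to 16.6 CPM. In the 2nd vehicle library Top3b had 12.0 CPM, below the other 3 at 15.0 to 15.3 CPM. Top2a had 55.8 CPM in the 1st pyraclostrobin library, above the other 3 at 20.4 to 21.9 CPM. That library also had the highest Gfap value, 677 CPM of the library total. Without that library the log2 fold change of Top2a was 1.74, with an adjusted p of 0.00763 by edgeR.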

How the results depend on the processing

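With topotecan 3 members were called in every alternative but one. Among variably expressed genes alone, which leave out Top1, Top2b and Tdp2, 1 was called. The Tdp1 difference turned to -0.037 with centring on genes of at most 100 kb and to -0.0025 with centring on all genes. For the complex I and III inhibitors, 1 member was called, against 0 at a threshold of 0.01, 0 with complex I inhibitors alone (Top2b -0.089, adjusted p 0.574) and 2 with single libraries in place of medians (Tdp2 0.17, adjusted p 0.0482). Leaving out 1 chemical gave 0 to 1. Top1mt turned to -0.031 with single libraries and -0.0061 with complex I inhibitors alone, and ran from -0.063 to 0.073 without 1 chemical. Top3a turned to -0.034 with complex III inhibitors alone. In the pyraclostrobin counts 0 members were called in each alternative, while the genes called, 2631 at first, were 1682 to 4052 without 1 library, 3365 with DESeq2 and 4301 at a threshold of 0.05. Tdp1 turned to -0.021 with no filter on low counts and ran from -0.084 to 0.21 without 1 library, Top3a from -0.31 to 0.034 and Top1mt from -0.48 to -0.024. Of the values of single members, 316 kept their sign and side of the threshold, 13 changed sign, 3 lost and 1 gained a call. The causes were not tested.

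With a replicate block 0 members and 3135 genes were called. Deviations of same-numbered libraries correlated at 0.376, 0.102, -0.0287 and 0.161, and 1 of 4 pairs correlated best with its own number. Not every pair was above 0.1, so the numbers were not taken to pair the libraries, although treated and vehicle columns share a prefix in their names. The paper describes the vehicle controls of this experiment as matched. Correlations of so few libraries cannot decide whether the libraries were paired. Low counts of Top3a and Top1mt, and single libraries of camptothecin and irinotecan, limit those values. The planned comparison of sulforaphane with fenamidone was not run.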
